A study of Mus musculus with 12 samples.

Results

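The genes described here encode the light chains of sarcomeric myosin, the kinase that phosphorylates one of them, and proteins that bind myosin in the thick filament. They were taken by name and number 10 of the 36229 genes in the expression table, in which each of the 10 had its own row. The essential light chain genes were Myl1 (ENSMUSG00000061816, chromosome 1), Myl3 (ENSMUSG00000059741, chromosome 9), Myl4 (ENSMUSG00000061086, chromosome 11) and Myl6b (ENSMUSG00000039824, chromosome 10). The regulatory light chain genes were Mylpf (ENSMUSG00000030672, chromosome 7) and Myl2 (ENSMUSG00000013936, chromosome 5). Mylk2 (ENSMUSG00000027470, chromosome 2) encodes the kinase, and Mybpc1 (ENSMUSG00000020061, chromosome 10), Mybpc2 (ENSMUSG00000038670, chromosome 7) and Mybph (ENSMUSG00000042451, chromosome 1) encode binding proteins.

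RNA was sequenced from mouse embryonic fibroblasts (MEFs) of the C57BL/6 strain, all driven toward muscle by an adenovirus that carries MyoD, the transcription factor that starts the skeletal muscle programme. The virus, Adeno-MyoD, was removed after 24 h, and the cells stayed in fresh medium for another 72 h, at all times with 10 µg/ml insulin and 2% horse serum. The genotypes were Kdm5a-/-;Rb1-/- (DKO), Rb1-/- (Rb1 KO), Kdm5a-/- (Kdm5a KO) and wild type (WT). Rb1 encodes the retinoblastoma protein, which represses E2F target genes, and Kdm5a encodes a histone demethylase that binds it. Each genotype had n = 2 libraries of unfractionated culture, called mixed here, made by ribosomal depletion of 1.7 µg of total RNA, with 40-base reads. DKO and WT also had n = 2 libraries each of purified cells, which were trypsinised, separated by size under gravity and left for 24 h in medium that had been on other MEFs for 48 h. Purified RNA (1.5 µg) went through 2 rounds of oligo(dT) selection and 15 PCR cycles and was read for 36 bases, so purification and library type cannot be told apart. Whether the 2 libraries within a group trace to different embryos or dishes is not stated in the labels, so p-values cover only the spread between them, which may be technical. The comparisons ask how loss of Rb1, of Kdm5a or of both changes expression in cells induced to form myotubes.

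In the sarcomere every myosin heavy chain holds an essential and a regulatory light chain on its neck, where they stiffen the lever arm and tune its movement. Skeletal muscle switches between light chain genes as it matures: Myl4 is the embryonic and atrial essential chain, Myl1 the chain of fast fibres and Myl3 the chain of slow fibres and the ventricle, while Mylpf and Myl2 are the fast and the slow or ventricular regulatory chains. Myosin-binding protein C, made in a slow form from Mybpc1 and in a fast form from Mybpc2, binds the thick filament and restrains cross-bridges, and Mybph is a shorter relative. Myosin light chain kinase, which calcium and calmodulin activate, phosphorylates the regulatory chain and raises the force of a twitch.

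Depth ran from 8688604 to 41309134 reads per library. Values are normalised read counts, that is reads per gene divided by a factor for the library. The 2 purified DKO libraries stood apart from each other: their median absolute log2 difference over genes was 0.508, against 0.106 to 0.185 between the libraries of each other group. Kdm5a itself had 1319 and 1369.7 in DKO and 1088 and 1192 in Kdm5a KO, against 1637 and 1871 in WT mixed libraries. Rb1 had 5309 and 5662 in DKO and 4457 and 4448 in Rb1 KO, against 5616 and 5649.5 in WT, so DKO overlapped WT. The sources used here do not give the deleted exons, and a count over the whole gene does not check a deletion of part of it. Xist had 6933 and 6809.7 in DKO and 3109.9 and 3251 in Kdm5a KO mixed libraries, and was at 0 in every Rb1 KO and WT mixed library. Ddx3y, a Y-linked gene, had the opposite pattern, so Kdm5a loss and the sex of the cells cannot be told apart, in mixed and in purified libraries. Skeletal muscle markers (Ckm, Acta1, Des, Tnnt3, Tnnc2, Myog, Actn2 and Neb) were present in every group. Their summed value was 63042 to 63747 in DKO, 24583 to 24942 in Rb1 KO and 70401 to 72925 in Kdm5a KO, against 111209 to 112047 in WT mixed libraries. In purified DKO it was 148631 to 150622, against 280895 to 284410.0 in purified WT. There 1 of the 8 rose (Ckm, to 514% of WT), 3 fell and 4 did not pass the test given below. Acta1, the marker with the highest value in purified WT (122147), was among the 4, at 51.8% of WT. Of all genes, 21% rose and 18.6% fell in that comparison. Summed cardiac markers (Nppa, Nppb, Nkx2-5, Tnni3, Tbx20, Gata4, Myh6 and Mybpc3) lay between 71.6 and 412 in all libraries, with Nppb and Nkx2-5 at 0 in WT mixed libraries. The sums were 184 to 189 in DKO, against 109 to 113 in WT mixed libraries, and 270 to 412 in purified DKO, against 208 to 222 in purified WT. Of 4 tested in DKO against WT, 3 did not pass in either library type. In mixed libraries 34% of all genes rose and 33.9% fell. Tbx20 had 4.46 in WT and 82.4 in DKO mixed libraries, and 5.59 and 123 in purified ones. Its WT means lie below the mean of 10 needed for a test, which it reached only through groups where it was higher. Its values are therefore given without a call.

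Reads could not be assigned to one gene everywhere. Mybph shares 49.9% of its exon bases with Adora1 in the GENCODE M21 annotation of GRCm38, and 45.7% of its 36-base stretches occur in that gene, so its values are uncertain. Adora1 had 1331 and 1180.1 in DKO and 991 and 947 in Rb1 KO, against 2394 and 2732 in WT mixed libraries. For Myl1, 13.7% of such stretches occur in Mylf-ps, a pseudogene. Mylpf shares none, and the other members share at most 5.6% of their exon bases with another gene.

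MyoD binds DNA at E-boxes, whose letters are CANNTG. Windows of 250 bases before the annotated start were available from RefSeq (GRCm38.p6) for 9 of the 10 members, 10 windows in all, and were searched for this motif on both strands. Of all 32817 such windows, 66.2% held CANNTG and 13.0% held CAGCTG, a form contained in CANNTG. The windows of 2 members that stayed below WT in DKO cells (Mylpf and Mybph) and of 2 whose DKO levels were close to WT or higher (Mybpc1 and Myl6b) are printed below, 5′ to 3′ on the strand of the gene, with E-boxes in capitals. They lie at chr7:127211358-127211607 (plus strand), chr1:134193198-134193447 (plus), chr10:88605153-88605402 (minus, across exons of the long noncoding gene Gm48752) and chr10:128498686-128498935 (minus). The sources of the counts name mm9 as their build, so these positions belong to a later assembly.
Mylpf: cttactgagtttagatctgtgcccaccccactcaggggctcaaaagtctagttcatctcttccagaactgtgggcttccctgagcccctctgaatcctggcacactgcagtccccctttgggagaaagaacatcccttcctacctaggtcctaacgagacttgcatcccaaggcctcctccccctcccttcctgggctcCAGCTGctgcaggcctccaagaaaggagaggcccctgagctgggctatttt
Mybph: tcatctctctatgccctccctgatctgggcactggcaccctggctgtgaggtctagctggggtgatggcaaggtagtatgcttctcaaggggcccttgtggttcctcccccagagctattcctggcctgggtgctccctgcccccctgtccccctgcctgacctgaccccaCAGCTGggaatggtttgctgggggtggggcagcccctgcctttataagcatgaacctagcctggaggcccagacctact
Mybpc1: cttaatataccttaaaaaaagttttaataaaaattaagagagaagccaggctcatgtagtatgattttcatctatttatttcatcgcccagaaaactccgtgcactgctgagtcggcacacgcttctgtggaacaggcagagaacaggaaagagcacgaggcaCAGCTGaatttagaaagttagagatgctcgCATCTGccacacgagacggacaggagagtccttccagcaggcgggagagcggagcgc
Myl6b: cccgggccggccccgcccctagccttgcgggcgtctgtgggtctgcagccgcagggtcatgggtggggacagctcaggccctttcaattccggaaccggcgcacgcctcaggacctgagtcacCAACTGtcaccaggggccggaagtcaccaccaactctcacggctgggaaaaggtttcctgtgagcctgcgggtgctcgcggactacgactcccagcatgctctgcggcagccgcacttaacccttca
The CAGCTG of Mylpf starts 51 bases before the annotated start, that of Mybph 79 bases before it and that of Mybpc1 87 bases before it. Mybpc1 also holds CATCTG at 57 bases, and Myl6b holds CAACTG at 127 bases. The Mybph window has a TATAAA box on the opposite strand 39 bases before the start, a motif found in 12.4% of windows. The E2F core TTTNGCGC occurred in no window of a member and in 1.13% of all windows. The Myl4 window held no CANNTG, and 208 of its 250 bases lie in exons of another gene, Cdc27. A match or its lack is a property of these letters only.

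Most of these transcripts were far lower in Rb1 KO cells than in WT, and the 6 that fell there were all higher in DKO cells than in Rb1 KO cells, Mybpc1 by the widest margin. Tests used limma on log2(value + 1) over all genes with a mean of at least 10, with Benjamini-Hochberg adjustment, and a gene passed when its adjusted p was under 0.05. In mixed libraries 8 of the 10 members could be tested, because Myl2 and Myl3 were below that mean. In Rb1 KO against WT, 6 fell, 1 rose and 1 did not pass, where 34.3% of 17199 genes fell and 36.8% rose. In DKO against Rb1 KO, 6 rose, 0 fell and 2 did not pass, where 23.1% of all genes rose and 24.2% fell. The other mixed comparisons gave 1 that rose and 4 that fell in DKO against WT (background 34% and 33.9%), 2 and 5 in DKO against Kdm5a KO (33.7% and 33.4%), and 2 and 3 in Kdm5a KO against WT (13.4% and 13.8%). The median log2 difference of the tested members was -2.83 in Rb1 KO against WT, where the median of all genes was 0.03, and 1.44 in DKO against Rb1 KO, where that of all genes was -0.01. It was -0.72 in DKO against WT, -1.18 in DKO against Kdm5a KO and -0.15 in Kdm5a KO against WT, with the median of all genes at most 0.015 from 0. These comparisons share the WT, DKO or Rb1 KO libraries with each other. In bulk libraries fewer muscle cells and less RNA per muscle cell cannot be told apart.

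**Figure D1:**
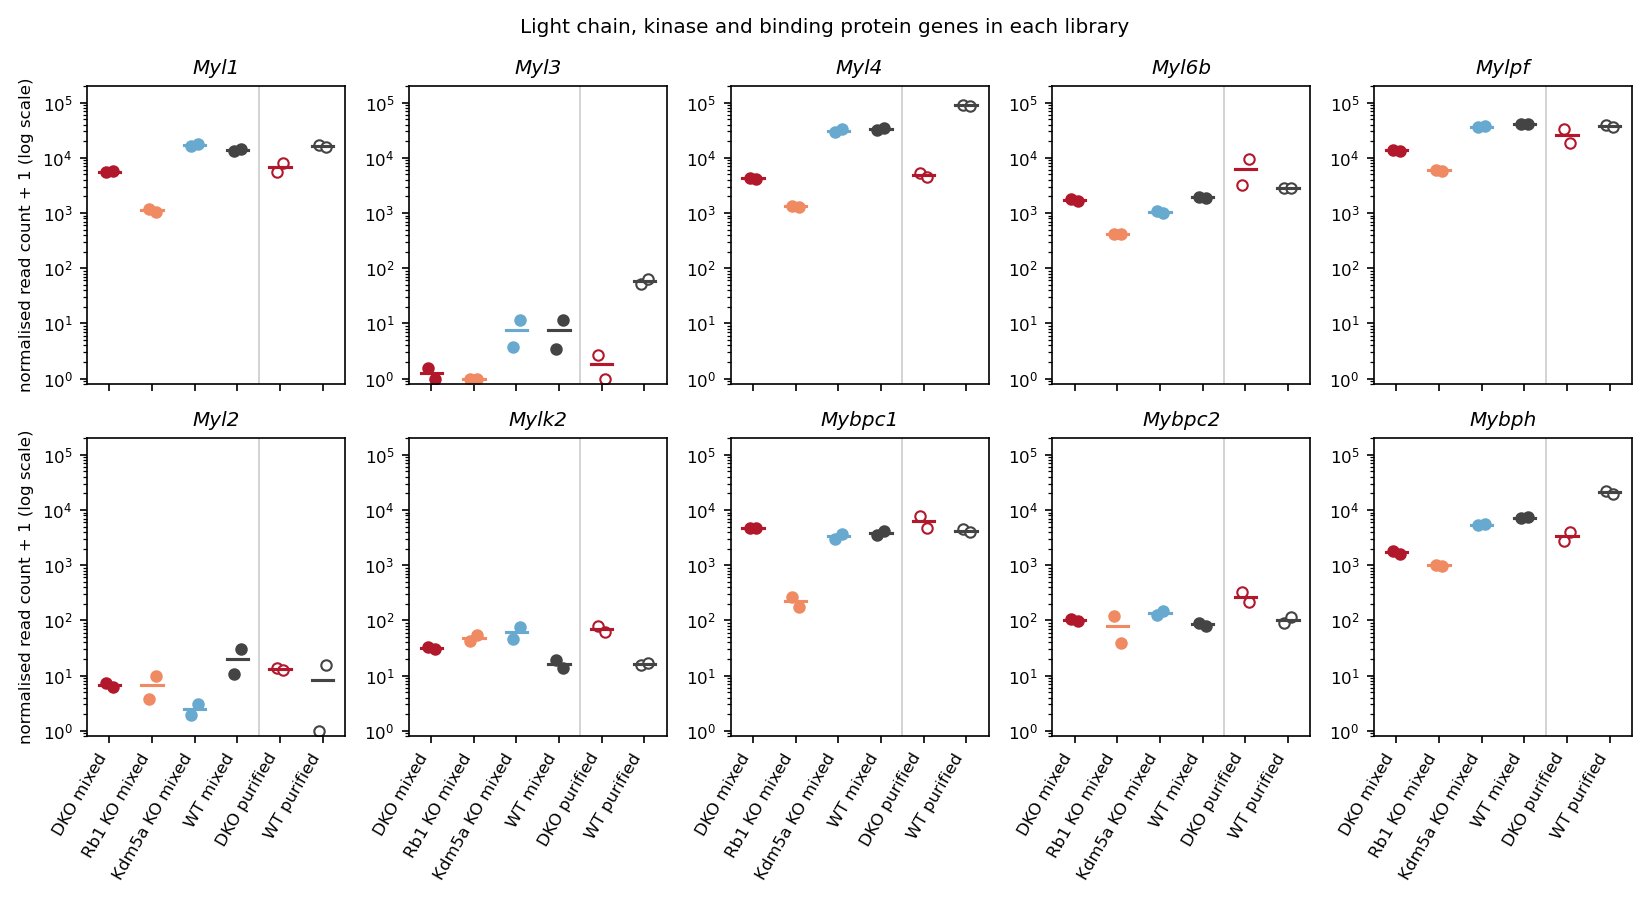
Normalised read count + 1 (log axis) of each member in each of the 12 libraries. Each point is a library, filled for mixed and open for purified, and the bar is the mean of 2. Myl1, Myl4, Mylpf, Myl6b, Mybpc1 and Mybph are lowest in the Rb1 KO libraries, Mybpc1 returns to the WT range or above in DKO, and Myl2, Myl3 and Mylk2 have the lowest values in the set.

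Other cells moved with these groups. All 8 fibroblast markers (Col1a1, Col1a2, Col3a1, Postn, Thy1, Pdgfra, Dcn and Lum) rose in Rb1 KO against WT, where 36.8% of all genes rose. Their summed value was 11011 to 11321 in DKO, 54932 to 65172 in Rb1 KO and 5593 to 5972 in Kdm5a KO, against 9006 to 9169 in WT mixed libraries. It was 7741 to 9596 in purified DKO, against 8134 to 9591 in purified WT, which overlap. Of 6 fibroblast markers tested there, 3 rose in purified DKO (Postn to 604%, Thy1 to 441% and Pdgfra to 261% of WT), Col3a1 fell to 36.8% of WT, and 2 did not pass, with a median log2 difference of 1.09. Of all genes, 21% rose and 18.6% fell there. None of the 8 was at 0 in any mixed group, and Lum was at 0 in purified WT. Smooth muscle markers (Acta2, Tagln, Cnn1, Myh11, Myocd and Smtn) summed to 18602 to 18883 in DKO, 41968 to 42605 in Rb1 KO and 29260 to 29429 in Kdm5a KO, against 40339 to 40764 in WT mixed libraries, and to 21445 to 35691 in purified DKO, against 108382 to 116076 in purified WT. None of these 6 was at 0 in any group. Acta2 made up most of the sum in WT mixed libraries (37438). In Rb1 KO against WT 3 rose (Tagln to 370%, Cnn1 to 1053% and Myh11, at only 5.06 in WT, to 1085% of WT), 2 fell and 1 did not pass. In mixed DKO against WT 2 rose (Cnn1 to 345% and Myh11 to 826%), 3 fell and 1 did not pass. In purified DKO 2 rose, 2 fell and 2 did not pass. All genes that rose and fell made up 36.8% and 34.3%, 34% and 33.9%, and 21% and 18.6% in these comparisons. Summed endothelial markers (4 genes) were low, at 196 to 231 in DKO, 51.3 to 62.5 in Rb1 KO and 51.8 to 62.4 in Kdm5a KO, against 29.8 to 32.3 in WT mixed libraries, and 148 to 196 in purified DKO, against 26.0 to 63.4 in purified WT. Summed macrophage markers (4 genes) were 121 to 129 in DKO, 183 to 225 in Rb1 KO and 46.1 to 56.7 in Kdm5a KO, against 74.2 to 112 in WT mixed libraries, and 426 to 1049 in purified DKO, against 128 to 153 in purified WT. Of 3 macrophage markers tested in mixed DKO against WT, Cd68 rose to 395% of WT and Csf1r fell to 16.1%. The third, Ptprc, also rose, but from a mean of only 1.66 in WT to 11.2 in DKO. Of 2 tested in purified DKO, 1 rose and 1 fell, with a median log2 difference of 0.08. Tie1 was at 0 in every group except purified DKO, and Adgre1 was at 0 in both purified groups. Summed fat cell markers reached at most 36.5 in any library. The part of transcripts from these other cells in the differences described below was not tested.

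Among all members Mylpf, the fast regulatory chain, had the highest level per kilobase in mixed libraries of each genotype. Divided by the merged length of the gene's exons, its mean was 12784 normalised counts per kilobase in DKO, 5570.4 in Rb1 KO and 34635 in Kdm5a KO, against 39124 in WT. Myl4 and Myl1 followed in WT, with 7301 and 6732 per kilobase, then Mybph with 3112, Myl6b with 1035 and Mybpc1 with 860.5. Mybpc2, Myl2, Mylk2 and Myl3 had at most 23.3 per kilobase there. In DKO Myl1 came after Mylpf, with 2686 per kilobase, and Mybpc1 (1054), Myl6b (948), Myl4 (915) and Mybph (734) were close together. These orders depend on the length used. With the longest principal transcript in place of all exons, Myl4 had 4502 in DKO, above Myl6b (1707) and Mybpc1 (1217). Mylpf stayed above Myl4 in WT mixed libraries on those lengths (54242 and 35900.1 per kilobase), while in purified WT Myl4 (94035) stood above Mylpf (48710.5), the reverse of the order with all exons (19123 for Myl4 and 35134 for Mylpf).

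Myl4, the embryonic essential chain, fell furthest of the 8 tested members in Rb1 KO, and in DKO it was the essential chain furthest below WT among the 3 tested. It had 4305 and 4185 in DKO, 1341 and 1298 in Rb1 KO and 28973 and 33157 in Kdm5a KO, against 32469.6 and 35238 in WT mixed libraries. WT and Kdm5a KO overlapped, DKO lay below both, and Rb1 KO was lowest. The Rb1 KO mean was 3.90% of WT (log2 difference -4.68 ± 0.06, adjusted p = 5.5e-14) and the DKO mean 12.5% of WT (log2 difference -2.99 ± 0.06, adjusted p = 2.89e-12). DKO against Rb1 KO rose by a log2 difference of 1.69 ± 0.06 (SE), with adjusted p = 7.25e-10. In Kdm5a KO against WT Myl4 did not pass (log2 difference -0.13 ± 0.06, adjusted p = 0.17), and without Kdm5a KO replicate 2 it did (-0.22, adjusted p = 0.0416).

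Myl1, the fast essential chain, had 5483 and 5660.5 in DKO, 1172 and 1062 in Rb1 KO and 16529 and 17568 in Kdm5a KO, against 13209 and 14713 in WT mixed libraries. No pair of groups overlapped, and the order from high to low was Kdm5a KO, WT, DKO and Rb1 KO. The Rb1 KO mean was 8.0% of WT (log2 difference -3.64 ± 0.07, adjusted p = 2.67e-13), and the DKO mean was 39.9% of WT (log2 difference -1.32 ± 0.07, adjusted p = 2.23e-09). DKO stood 2.32 ± 0.07 (SE) above Rb1 KO on the log2 scale, with adjusted p = 5.96e-11. The rise in Kdm5a KO was small (log2 difference 0.29 ± 0.07, adjusted p = 0.00589) and was lost without WT replicate 1 (0.21, adjusted p = 0.0539) or without Kdm5a KO replicate 2 (0.25, adjusted p = 0.065).

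Myl6b, an essential chain found in slow muscle and in nonmuscle cells, behaved otherwise in DKO. It had 1823 and 1680.2 in DKO, 410.5 and 408 in Rb1 KO and 1071 and 1003 in Kdm5a KO, against 1947 and 1878 in WT mixed libraries. Each group stood clear of the next, with DKO just below WT. It fell in Rb1 KO to 21.4% of WT (log2 difference -2.22 ± 0.08, adjusted p = 5.4e-11) and in Kdm5a KO to 54.2% of WT (log2 difference -0.88 ± 0.08, adjusted p = 6.01e-06). DKO was 91.6% of WT and did not pass (log2 difference -0.13 ± 0.08, adjusted p = 0.155). DKO rose against Rb1 KO (log2 difference 2.09 ± 0.08, adjusted p = 4.82e-10) and against Kdm5a KO (log2 difference 0.76 ± 0.08, adjusted p = 1.72e-06), so both single losses lay below the loss of both genes.

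Myl3, the slow and ventricular essential chain, was close to absent. It had 1 and 0 reads in DKO, 0 and 0 in Rb1 KO and 3 and 15 in Kdm5a KO, against 2 and 10 in WT mixed libraries. From counting alone, the exact 95% interval put Rb1 KO at least 2.89-fold below WT. The WT over DKO ratio was 30.0, with an exact 95% interval from counting alone of 4.44 to 1282. In purified cells it had 1 and 0 reads in DKO, against 27 and 51 in WT, a WT over DKO ratio of 91.3 with a counting interval of 15.9 to 3649.9.

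The share of each gene within the essential chains describes how this set changed in makeup. Myl4 held 20.4% and 19.9% of the per-kilobase level of the 4 genes in DKO, 26.9% and 27.6% in Rb1 KO and 42.2% and 44.2% in Kdm5a KO, against 48.5% and 48.4% in WT mixed libraries. Myl6b held 21.6% and 20.03% in DKO, 20.6% and 21.8% in Rb1 KO and 3.92% and 3.36% in Kdm5a KO, against 7.31% and 6.47% in WT. Myl1 held 58.0% and 60.1% in DKO, 52.5% and 50.5% in Rb1 KO and 53.9% and 52.4% in Kdm5a KO, against 44.1% and 45.1% in WT. The 4 Rb1-deficient mixed libraries thus had less Myl4 and more Myl6b among the essential chains than the 4 libraries with Rb1, with no overlap. With the longest principal transcript as length this also held, and the Myl6b shares were smaller, with means of 13.0% in DKO, 12.5% in Rb1 KO and 1.84% in Kdm5a KO, against 3.39% in WT. In purified cells Myl4 held 20.4% and 9.76% in DKO, against 66.8% and 67.02% in WT, and Myl6b held 31.6% and 51.5% in DKO, against 5.25% and 5.43% in WT (29.4% and 2.34% as means with the principal transcript). No test of a share was made. Whether Myl4 or Myl1 was the larger in WT mixed libraries depends on the length used, since Myl4 was at 48.5% with all exons and 41.7% with the longest transcript, and Myl1 at 44.6% and 52.0%.

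**Figure D2:**
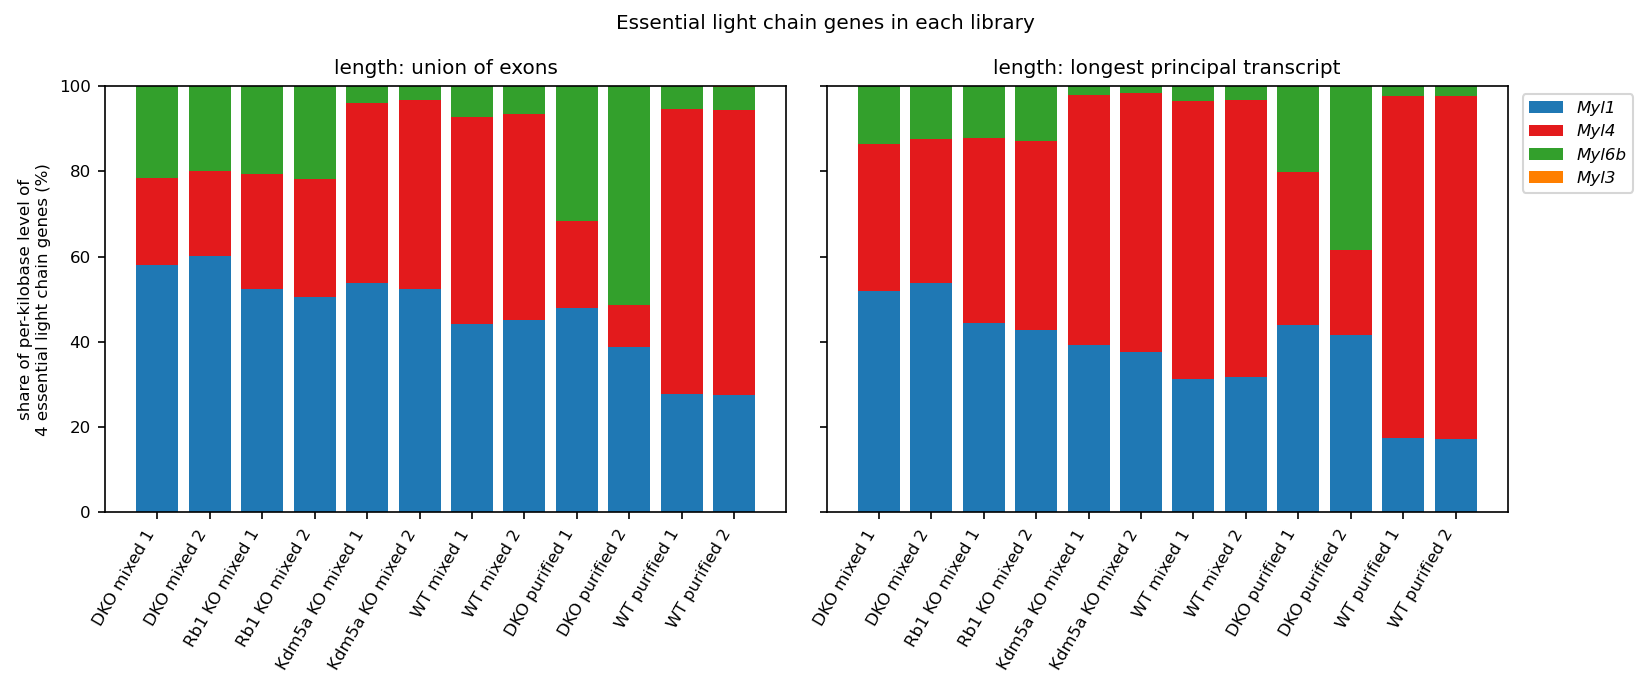
Share (%) of the per-kilobase level of Myl1, Myl4, Myl6b and Myl3 in each library, with the length of all exons (left) or of the longest principal transcript (right). The Myl4 band is narrower in every DKO and Rb1 KO library than in every WT and Kdm5a KO library, and Myl6b is widest in purified DKO replicate 2, at 51.5% on the left.

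Of the 2 regulatory chains among the members, Mylpf and Myl2, Mylpf made up at least 99.9% of the per-kilobase level in every library, with no other regulatory chain counted. It had 14017 and 13137 in DKO, 5966 and 5866 in Rb1 KO and 35425 and 38141 in Kdm5a KO, against 41547 and 41552 in WT mixed libraries. The groups did not overlap and ran from WT to Kdm5a KO, DKO and Rb1 KO. Mylpf fell to 14.2% of WT in Rb1 KO (log2 difference -2.81 ± 0.05, adjusted p = 2.56e-13) and to 32.7% of WT in DKO (log2 difference -1.61 ± 0.05, adjusted p = 3.8e-11), and it rose in DKO against Rb1 KO (log2 difference 1.198 ± 0.05, adjusted p = 1.48e-09). The small fall in Kdm5a KO (log2 difference -0.18 ± 0.05, adjusted p = 0.0191) was lost with edgeR (-0.15, adjusted p = 0.0534), without WT replicate 1 (adjusted p = 0.0662), without WT replicate 2 (adjusted p = 0.0649) and without Kdm5a KO replicate 1 (adjusted p = 0.172). Myl2 had 12 and 13 reads in DKO, 2 and 10 in Rb1 KO and 1 and 3 in Kdm5a KO, against 8 and 27 in WT, too few for the fit. Purified libraries had 8 and 11 Myl2 reads in DKO, against 0 and 12 in WT, which overlapped.

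Mylk2, the skeletal kinase of the regulatory chain, had at most 20.6 normalised counts per kilobase in any mixed group, and rose in Rb1 KO, where Myl1, Myl4, Mylpf and Myl6b fell. It had 32.1 and 29.2 in DKO, 41.9 and 53.4 in Rb1 KO and 45.2 and 76.3 in Kdm5a KO, against 17.9 and 12.8 in WT mixed libraries. These values rest on 61 and 74 reads in DKO, 31 and 59 in Rb1 KO and 50 and 109 in Kdm5a KO, against 15 and 12 in WT. Every knockout library lay above both WT libraries. Mylk2 rose in Rb1 KO against WT (log2 difference 1.58 ± 0.37, adjusted p = 0.00193) and in Kdm5a KO against WT (log2 difference 1.89 ± 0.37, adjusted p = 0.00247). The rise in DKO against WT (log2 difference 0.97 ± 0.37, adjusted p = 0.0336) did not pass without the filter on low values (adjusted p = 0.0647), with DESeq2 (0.0712), with the 2 groups fitted alone (0.0526), or without WT replicate 2 (0.134), DKO replicate 1 (0.143) or DKO replicate 2 (0.0956). DKO fell against Kdm5a KO (log2 difference -0.92 ± 0.37, adjusted p = 0.0425), and this was lost without Kdm5a KO replicate 2 (-0.55, adjusted p = 0.299), DKO replicate 1 (-0.98, adjusted p = 0.112) or DKO replicate 2 (-0.85, adjusted p = 0.164) and without the filter on low values (adjusted p = 0.0794). DKO against Rb1 KO did not pass (log2 difference -0.61 ± 0.37, adjusted p = 0.198).

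Mybpc1, the slow form of myosin-binding protein C, had the largest rise among members in DKO against Rb1 KO. It had 4761 and 4787 in DKO, 270.1 and 176 in Rb1 KO and 2979 and 3670.1 in Kdm5a KO, against 3555 and 4236 in WT mixed libraries. Both DKO libraries lay above every other mixed library, and both Rb1 KO libraries lay below, while Kdm5a KO and WT overlapped. It fell to 5.72% of WT in Rb1 KO (log2 difference -4.15 ± 0.16, adjusted p = 1.52e-10), and the DKO mean was 2142% of Rb1 KO (log2 difference 4.45 ± 0.16, adjusted p = 4.08e-10). DKO against WT did not pass (log2 difference 0.30 ± 0.16, adjusted p = 0.114) but passed with edgeR (0.32, adjusted p = 0.0229) and with the 2 groups fitted alone (adjusted p = 0.0137). DKO against Kdm5a KO rose (log2 difference 0.53 ± 0.16, adjusted p = 0.0102), a call lost with DESeq2 (adjusted p = 0.0587) and without Kdm5a KO replicate 1 (0.38, adjusted p = 0.118). Kdm5a KO against WT did not pass (log2 difference -0.23 ± 0.16, adjusted p = 0.312).

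Mybph, the shorter relative whose counts include bases shared with Adora1, had 1798 and 1619 in DKO, 1019 and 987 in Rb1 KO and 5319 and 5605 in Kdm5a KO, against 7093 and 7404 in WT mixed libraries. The groups did not overlap, and DKO was nearer to Rb1 KO than to WT. It was 13.8% of WT in Rb1 KO (log2 difference -2.85 ± 0.06, adjusted p = 1.64e-12), 23.6% in DKO (log2 difference -2.09 ± 0.06, adjusted p = 4.1e-11) and 75.4% in Kdm5a KO (log2 difference -0.41 ± 0.06, adjusted p = 0.000572). DKO against Rb1 KO rose by 0.77 ± 0.06 on the log2 scale (SE), with adjusted p = 9.61e-07, the smallest of the 6 rises. The Mybpc1 over Mybph ratio of normalised counts, within a library, was 2.65 and 2.96 in DKO, 0.265 and 0.178 in Rb1 KO and 0.560 and 0.655 in Kdm5a KO, against 0.501 and 0.572 in WT. Mybpc2, the fast form, had 106 and 96.0 in DKO, 120.2 and 38.0 in Rb1 KO and 126 and 148 in Kdm5a KO, against 89.7 and 78.9 in WT, and passed in no mixed comparison. Its Rb1 KO libraries lay on both sides of WT: without Rb1 KO replicate 1 it passed in Rb1 KO against WT (-1.13, adjusted p = 0.00363) and in DKO against Rb1 KO (1.38, adjusted p = 0.00219).

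**Figure D3:**
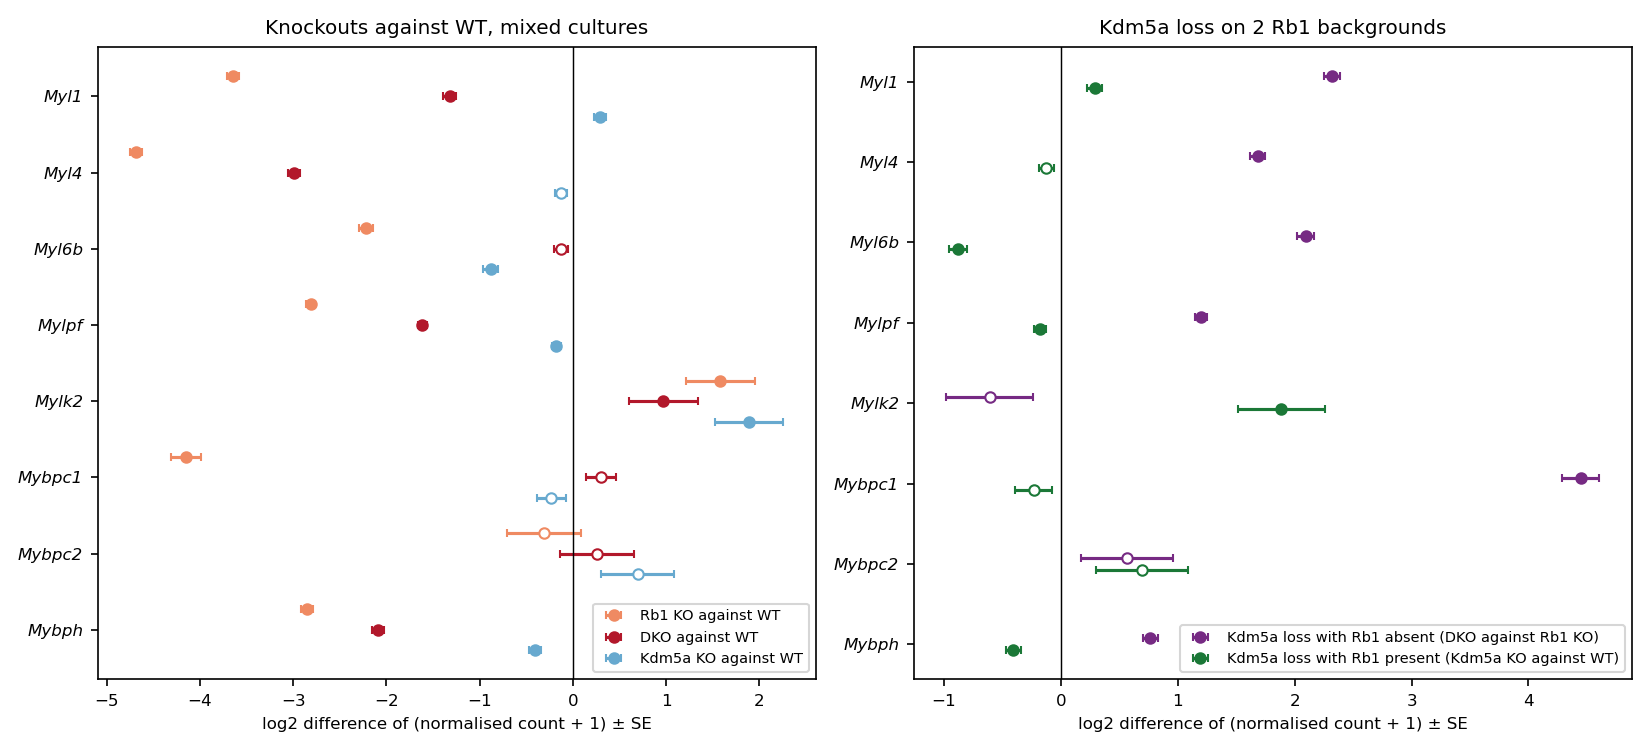
Log2 difference ± SE (limma, mixed libraries, n = 2 per group) of the 8 tested members: knockouts against WT on the left, loss of Kdm5a with Rb1 absent or present on the right. Filled points passed an adjusted p of 0.05 and open points did not. On the left Myl1, Myl4, Mylpf and Mybph lie below 0 in both Rb1 KO and DKO, nearer to 0 in DKO, and on the right Mybpc1 lies at 4.45 with Rb1 absent and at -0.23 with Rb1 present.

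DKO against Kdm5a KO compares cells that lack Rb1 with cells that have it, both without Kdm5a. Myl4 fell furthest (log2 difference -2.87 ± 0.06, adjusted p = 4.3e-12), followed by Mybph (log2 difference -1.68 ± 0.06, adjusted p = 2.82e-10), Myl1 (log2 difference -1.61 ± 0.07, adjusted p = 4.43e-10) and Mylpf (log2 difference -1.44 ± 0.05, adjusted p = 1.14e-10). With the fall of Mylk2 and the rises of Myl6b and Mybpc1 given above, 7 of the 8 tested members passed, and Mybpc2 did not (log2 difference -0.43 ± 0.40, adjusted p = 0.346). In this comparison 33.7% of all genes rose and 33.4% fell.

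Whether Kdm5a loss acts differently with and without Rb1 was tested as an interaction, the DKO minus Rb1 KO difference less the Kdm5a KO minus WT difference. Of the 8 members, 6 had a positive interaction that passed, 1 a negative one and 1 did not pass, where 18.8% and 19.5% of all genes did so, and the members' median was 1.59 against -0.02 for all genes. The largest was in Mybpc1 (4.68 ± 0.23 on the log2 scale, SE, adjusted p = 1.37e-08), followed by Myl6b (2.98 ± 0.11, adjusted p = 1.32e-09). Those of Myl1 (2.03 ± 0.09, adjusted p = 8.39e-09), Myl4 (1.81 ± 0.09, adjusted p = 1.93e-08), Mylpf (1.37 ± 0.07, adjusted p = 2.14e-08) and Mybph (1.18 ± 0.09, adjusted p = 8.82e-07) were also positive. For Myl6b, Mylpf and Mybph the effect of Kdm5a loss passed with opposite signs, above 0 without Rb1 and below 0 with it. The Mylpf fall with Rb1 present was lost in the alternatives given above. Myl4 and Mybpc1 had the same signs, but with Rb1 present their differences (-0.13 and -0.23) did not pass. Mylk2 went the other way (-2.50 ± 0.52, adjusted p = 0.00234), with a rise when Kdm5a was lost in cells that had Rb1 and no passing change in cells that lacked it. Mybpc2 did not pass (-0.13 ± 0.56, adjusted p = 0.879), except without Rb1 KO replicate 2 (-0.94, adjusted p = 0.0451).

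Purified cells kept some of the DKO differences and not others. Myl2 was too low to test, and Myl3 is described by its reads above, since it reached the mean needed only through its level in purified WT. Of the other 8 members, 2 rose, 3 fell and 3 did not pass, where 21% of 16670 genes rose and 18.6% fell. The median of these 8 was -0.03, against -0.05 for all genes. Myl4 had 5315 and 4499.8 in purified DKO, against 90764 and 86586 in purified WT, or 5.53% of WT (log2 difference -4.18 ± 0.21, adjusted p = 0.000968). Mybph had 2796 and 4082 in DKO, against 22004 and 19921 in WT, or 16.4% (log2 difference -2.63 ± 0.26, adjusted p = 0.00242). Both fell, with wide gaps between the groups. Myl1 had 5573 and 8001 in DKO, against 16936 and 15857 in WT, and also fell (log2 difference -1.29 ± 0.25, adjusted p = 0.0144). The 2 that rose were of low level: Mylk2 with 78.1 and 59.6 in DKO, against 14.9 and 16.2 in WT (log2 difference 2.07 ± 0.38, adjusted p = 0.0122), and Mybpc2 with 325 and 211 in DKO, against 87.4 and 113 in WT (log2 difference 1.39 ± 0.33, adjusted p = 0.0261). Without WT replicate 1 or 2, the calls of Myl1 (adjusted p = 0.21 and 0.178), Mylk2 (0.105 and 0.0891) and Mybpc2 (0.224 and 0.132) were lost.

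The other tested members depended on which purified DKO library was read. With 1 of these left out, a lone DKO library is tested with the spread of the 2 WT libraries. Those lay closer together (median absolute log2 difference 0.146, against 0.508 in DKO), so only the log2 difference is given for such fits. Mylpf had 33465 and 18739 in DKO, against 38567 and 36057 in WT, and did not pass (log2 difference -0.57 ± 0.34, adjusted p = 0.224). Its difference was -0.99 without DKO replicate 1. Myl6b had 3277 and 9456 in DKO, against 2839 and 2794 in WT, and did not pass (log2 difference 0.98 ± 0.51, adjusted p = 0.179). The Myl6b difference was 1.75 without DKO replicate 1 and 0.22 without DKO replicate 2. With DESeq2 on all 4 libraries it passed (1.201, adjusted p = 0.0183). Mybpc1 had 7746 and 4706 in DKO, against 4493 and 3942 in WT, and did not pass (log2 difference 0.52 ± 0.29, adjusted p = 0.209). Its difference was 0.88 without DKO replicate 2. For each gene both DKO libraries lay outside the WT range of their gene: both Mylpf values below it, and all Myl6b and Mybpc1 values above it.

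The difference of the DKO effect between purified and mixed libraries was tested over all 12 libraries. This fit shares the spread of a gene over all 6 groups, though the purified DKO libraries stood further apart than those of any other group. For Myl4 its SE (0.16) is smaller than that of DKO against WT in purified libraries alone (0.21). The SEs and p-values given here may therefore overstate precision. Of 8 members, with Myl3 again set aside, 1 passed upward (background 11.6%), 1 downward (13.2%) and 6 did not pass, and their median was 0.63, against -0.06 for all genes. The fall of Myl4 was deeper in purified libraries by -1.19 ± 0.16 on the log2 scale (SE), with adjusted p = 0.000722. Myl4 was 1.16-fold higher in purified than in mixed libraries of DKO and 2.62-fold higher in those of WT. The fall of Mylpf was shallower in purified libraries by 1.04 ± 0.30 (SE), with adjusted p = 0.028. This call was lost without any 1 of the 2 DKO mixed, 2 WT mixed or 2 WT purified libraries, with adjusted p between 0.0676 and 0.094. Myl6b (1.11 ± 0.50, adjusted p = 0.131) and Mybph (-0.55 ± 0.22, adjusted p = 0.0992) did not pass. Without DKO purified replicate 1 or 2 the difference of Myl6b was 1.88 and 0.35, and that of Mybph was -0.27 and -0.82. Myl1 (log2 difference 0.03 ± 0.22, adjusted p = 0.939) did not pass, and its difference was 0.29 without DKO purified replicate 1. Mylk2, Mybpc1 and Mybpc2 had differences of 1.10, 0.22 and 1.13 that did not pass, with adjusted p of 0.132, 0.679 and 0.213.

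**Figure D4:**
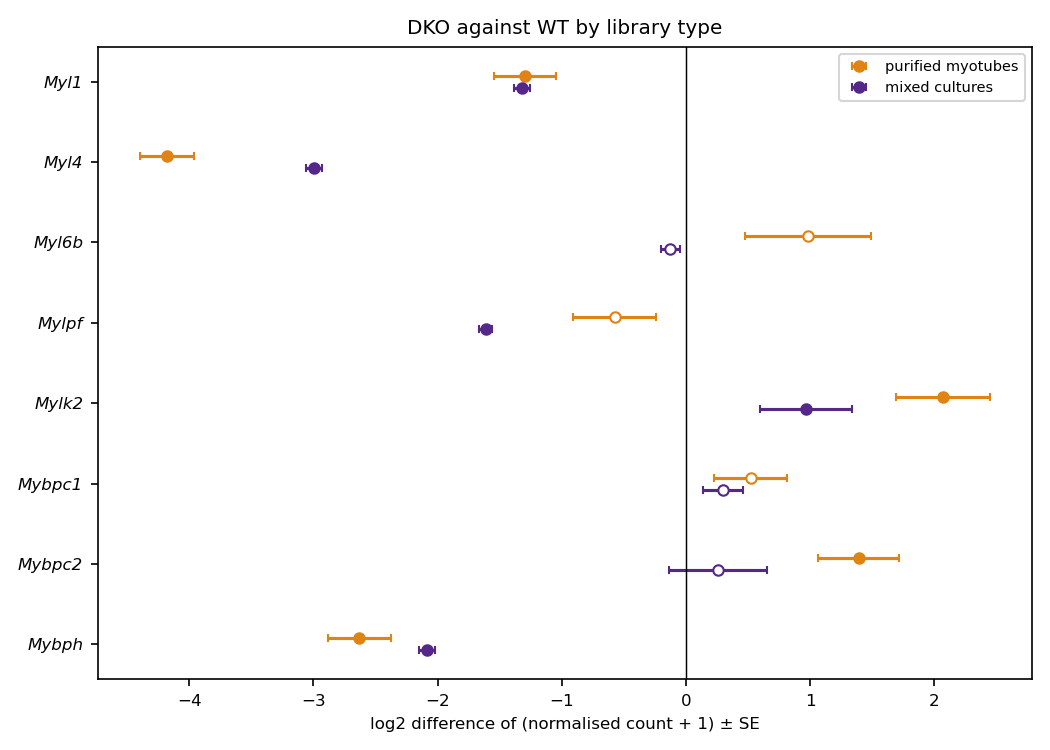
Log2 difference ± SE of DKO against WT in purified and in mixed libraries (limma, n = 2 per group). Filled points passed an adjusted p of 0.05. Myl4 and Mybph lie furthest below 0 of the 8 members shown in both library types, and Mylk2 lies above 0 in both.

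The partners of these proteins were followed in named lists. Of 12 myosin heavy chain genes, 3 rose, 8 fell and 1 did not pass in Rb1 KO against WT (median log2 difference -3.04, all genes 0.03), and 7 rose, 2 fell and 3 did not pass in DKO against Rb1 KO (median 2.01, all genes -0.01). The shares of all genes that rose and fell were 36.8% and 34.3% in the first comparison, and 23.1% and 24.2% in the second. Myh3, the embryonic heavy chain, had 20397 and 21204 in DKO and 4384 and 4678 in Rb1 KO, against 77084 and 76912 in WT mixed libraries. It fell in Rb1 KO against WT (-4.09 ± 0.05, adjusted p = 2.75e-14) and rose in DKO against Rb1 KO (2.20 ± 0.05, adjusted p = 1.39e-11). Myh8, the perinatal heavy chain, had 85.2 and 85.7 in DKO and 12.2 and 7.24 in Rb1 KO, against 5433 and 6317 in WT, and 156 and 163 in purified DKO, against 78148 and 69138 in purified WT. It fell in purified DKO (-8.84 ± 0.19, adjusted p = 0.000386), with the smallest p among the heavy chains there, where 2 of the 12 rose, 7 fell and 3 did not pass (median -1.90, all genes -0.05). Of all genes, 21% rose and 18.6% fell there. The 3 that rose in Rb1 KO against WT included the nonmuscle chain Myh9 (1.96 ± 0.07, adjusted p = 9.17e-11).

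Of 8 further light chain and binding protein genes, Myl6 was not analysed here, and 4 reached the mean needed for a test. In Rb1 KO against WT 2 of these rose and 2 did not pass, where 36.8% of all genes rose and 34.3% fell. In DKO against Rb1 KO 1 rose and 3 fell, where 23.1% of all genes rose and 24.2% fell. The nonmuscle regulatory chain Myl12b rose in Rb1 KO (0.98 ± 0.12, adjusted p = 9.48e-06) and fell in DKO against Rb1 KO (-0.71 ± 0.12, adjusted p = 0.000375), and Myl9, the smooth muscle regulatory chain, fell in DKO against Rb1 KO (-1.47 ± 0.08, adjusted p = 1.19e-08) and in purified DKO against WT (-2.53 ± 0.20, adjusted p = 0.00161). The atrial regulatory chain Myl7 and the cardiac Mybpc3 were untested, Myl7 being at 0 in all mixed libraries of WT, Kdm5a KO and Rb1 KO. Among 13 genes of light chain phosphorylation, 2 rose, 7 fell and 4 did not pass in Rb1 KO against WT, and 5 rose, 4 fell and 4 did not pass in DKO against Rb1 KO. The medians of this list were -0.33 and -0.09, where 36.8% and 23.1% of all genes rose and 34.3% and 24.2% fell. Mylk4, another member of the kinase family, had 1652 and 1578 in DKO and 469.9 and 442 in Rb1 KO, against 1753 and 2184 in WT, and 535 and 550.4 in purified DKO, against 2547 and 2467 in purified WT. It fell in Rb1 KO (-2.10 ± 0.11, adjusted p = 2.41e-09), rose in DKO against Rb1 KO (1.82 ± 0.11, adjusted p = 4.25e-08) and fell in purified DKO (-2.21 ± 0.18, adjusted p = 0.00173), opposite in direction to Mylk2 in the first and the last of these. The smooth muscle and nonmuscle kinase Mylk rose in purified DKO (0.67 ± 0.18, adjusted p = 0.0384), where 1 of the 13 rose, 2 fell and 10 did not pass. Of all genes, 21% rose and 18.6% fell there.

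Of 12 genes for thick filament folding, assembly and the M-band, 1 rose, 10 fell and 1 did not pass in Rb1 KO against WT (median -2.41), and 9 rose, 0 fell and 3 did not pass in DKO against Rb1 KO (median 1.48). Of all genes, 36.8% rose and 34.3% fell in the first comparison, and 23.1% rose and 24.2% fell in the second. Unc45b, a chaperone of myosin folding, fell in Rb1 KO (-3.18 ± 0.07, adjusted p = 8.94e-13) and rose in DKO against Rb1 KO (2.29 ± 0.07, adjusted p = 6.7e-11). Smyd1, a methyltransferase needed for thick filament assembly, fell in Rb1 KO (-2.58 ± 0.07, adjusted p = 8.36e-12), and Myom2, an M-band gene, rose in DKO against Rb1 KO (1.85 ± 0.06, adjusted p = 7.92e-11). In purified DKO against WT 2 of the 12 rose, both of the M-band: Myom2 (1.27 ± 0.19, adjusted p = 0.00725) and Myom1 (1.03 ± 0.18, adjusted p = 0.0108). There 4 fell and 6 did not pass, with a list median of -0.01, where 21% of all genes rose and 18.6% fell.

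The members differed among themselves in profile over the 6 groups. Profiles were compared by the root mean square difference of log2(group mean + 1), centred on each gene's own mean, over 12101 genes, as a description with no test. The most alike pair of members was Myl1 and Mylpf (0.46), and Myl4 was further from Mybpc1 (1.77) than from Myl3 (0.67). Myl6b was at 0.88 from Mybpc1, and Mylk2 at 0.66 from Mybpc2. Outside the set, the genes nearest to Myl4 were Actc1 (0.34), Ablim3 (0.36) and Hrh3 (0.37), and Actc1 encodes cardiac actin, which embryonic skeletal muscle also makes. Nearest to Mybpc1 were Mypn (0.40), Ky (0.41) and Traf1 (0.46), of which Mypn encodes a Z-disc protein. Nearest to Myl1 were Art5 (0.24), Pdpn (0.24) and Ksr1 (0.32), to Mylpf Nespas (0.11), Tubb2a (0.14) and Usp20 (0.15), to Myl6b Asb10 (0.33), Pga5 (0.34) and Zbtb17 (0.36), and to Mybph Mir678 (0.12), Gstm7 (0.22) and Rnf113a1 (0.27). Nearest to Mybpc2 were Pdzk1 (0.16), Myom1 (0.19) and Snrnp25 (0.20), of which Myom1 is an M-band gene, and nearest to Mylk2 were Abcc4 (0.27), Nyap1 (0.31) and Fdxr (0.33).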

How the data were processed

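The authors deposited 1 table of normalised counts (a signal per gene and library) for 12 libraries of MyoD-transduced MEFs, n = 2 per group. The submitters' processing notes name TopHat 1.2.0, the mm9 build and DESeq, without their roles. The DESeq version, the read counter and the annotation are not given in the sources used here. The steps of each column gave whole reads back for 100% of values (tolerance 0.01). Gene names, exon overlaps and lengths were taken from GENCODE M21 (GRCm38), which names 30983 of 36229 identifiers, and promoters from RefSeq (GRCm38.p6).

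Values were analysed with limma 3.58.1 in R 4.3.3, allowing the variance to follow the mean level, on log2(value + 1), two-sided, for genes averaging at least 10, with Benjamini-Hochberg adjustment over all genes fitted. The 8 mixed libraries shared a fit, the 4 purified had their own, and all 12 gave the difference between library types. Standard errors are those of limma, and fold changes on this scale understate the change of low genes. Alternatives were a pseudocount of 10, no filter, edgeR 4.0.16 and DESeq2 1.42.0 on the whole reads, only the 2 groups compared, a replicate block, each library left out and other gene lengths. The edgeR test on whole reads called 4889 genes in Kdm5a KO against WT, 12152 in Rb1 KO against WT, 11859 in DKO against WT, 8584 in DKO against Rb1 KO, 11946 in DKO against Kdm5a KO and 6538 in purified DKO against WT. Counting intervals are exact at 95% and cover counting error only. Every member tested is named, and from each list up to 4 genes with the smallest p. Tests were checked on simulated data with the same dispersion in every group, which does not cover the wider spread of the purified DKO libraries. Members and gene lists were chosen with earlier results of these data known.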

Additional observations from a re-analysis of the deposited data

Results flagged for a closer look

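The effect of Kdm5a loss differed between cells without and with Rb1, by the interaction test in limma, in 7 members: by 2.03 for Myl1, 1.81 for Myl4, 1.37 for Mylpf, 2.98 for Myl6b, 4.68 for Mybpc1 and 1.18 for Mybph, and by -2.50 for Mylk2, all on the log2 scale. The DKO against WT difference itself differed between purified and mixed libraries by -1.19 for Myl4 and by 1.04 for Mylpf, also on the log2 scale. These differences between contrasts are the reason the 9 results are listed, and no explanation of them was tested.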

How the results depend on the processing

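No called change of a member changed direction under any alternative run. Of the recomputed member changes, 649 kept their side of the threshold, 31 lost and 20 gained it. Genes that passed in Kdm5a KO against WT numbered 4685, and 3057 to 4251 when 1 library was left out (fewest without Kdm5a KO replicate 1), and members 5, and 3 to 5 (3 without WT replicate 1). In purified DKO against WT, 6598 genes and 6 members passed (Myl3, which passed the filter through WT, is counted here), against 1983 to 11574 genes and 3 to 8 members when 1 library was left out. For the difference between library types, 4292 genes and 2 members passed, against 2471 to 8989 genes and 1 to 6 members. In both of these comparisons the counts were lower without any WT library and higher without either purified DKO library (between library types also lower without a mixed DKO library), and the cause was not tested. With n = 2, leaving out 1 library leaves a lone library that is assumed to vary like the other groups. In the purified fit the spread then comes from the other group alone. The median absolute log2 difference between libraries was 0.146 in purified WT and 0.508 in purified DKO.

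No shared shift by replicate number was seen: deviations of same-numbered libraries correlated between -0.047 and 0.052 over the pairs of groups. This cannot show whether same-numbered libraries share an embryo, a culture or a day, which the labels do not state. With the replicate number as a block, 7629 genes and 7 members passed in purified DKO against WT (Myl6b 0.98, adjusted p = 0.025) and 6 members in DKO against Kdm5a KO (Mylk2 lost, adjusted p = 0.0521), and no other member changed its call.

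The Myl4 share of the essential chains, with the mean over all exons given first, then with the longest transcript and the longest principal transcript, was 20.1%, 16.5% and 34.2% in DKO mixed, 27.2%, 22.9% and 43.9% in Rb1 KO, 43.2%, 36.3% and 59.6% in Kdm5a KO and 48.5%, 41.7% and 65.1% in WT mixed. It was 15.1% with all exons and 27.8% with the principal transcript in DKO purified, against 66.9%, 60.8% and 80.2% in WT purified. The principal transcript was chosen as a length after the data were seen. Myl2, Myl3 and Mylk2 rest on at most 109 reads in any library, so small differences in them were not detectable at this depth.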
